A study of Mus musculus with 12 samples.

Results

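Gene expression with everolimus was compared with gene expression under vehicle in c-MYC/MCL1/RictorKOTsc2KO mouse liver tumors. The labels placed 6 of the 12 libraries of the series in this comparison, 3 tumors from vehicle-treated mice and 3 from everolimus-treated mice. The other libraries were 3 MLN0128-treated tumors of the same genotype and 3 wild-type C57BL/6 normal livers, which entered the same linear model and are named only where a result turns on them. All tumors, those under vehicle included, arose in mice on a C57BL/6J background with floxed alleles of both genes (*Rictor* fl/fl and *Tsc2* fl/fl). Plasmids were delivered by hydrodynamic injection, a fast, large-volume injection into the tail vein that brings DNA into hepatocytes. They carried c-MYC and MCL1 under the EF1α promoter, Cre recombinase under the CMV promoter and sleeping beauty transposase. Each tumor therefore grew from transfected cells in an otherwise unrecombined liver, and each library held the RNA of a piece of tumor tissue with all of its cell types. Per the labels, everolimus at 1 mg/kg/day, MLN0128 at 1 mg/kg/day or vehicle was given by gavage on 6 days a week for 3 weeks, from 6 days after injection, and the mice were sacrificed 3.7 weeks after injection. That schedule is the one in the labels and the methods. The description of the RNA-seq experiment itself gives 3 days of treatment, so whether these tumors had been treated for days or weeks is uncertain. The ages of the mice are not given in the sources used here.

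mTOR is a kinase that works in separate complexes. mTORC1, held in check by the TSC1/TSC2 complex, responds to amino acids and growth factors at the surface of the lysosome. Its substrate p70S6K promotes ribosome production and translation. Its substrate 4EBP1 blocks the start of translation by binding eIF4E, and phosphorylation by mTORC1 lifts that block. mTORC1 also holds the transcription factors TFEB and TFE3, which drive genes of the lysosome, in the cytoplasm. mTORC2 contains RICTOR and phosphorylates AKT. Everolimus is a rapamycin analog that binds FKBP12 and inhibits mTORC1 allosterically, whereas MLN0128 competes with ATP at the mTOR kinase site of both complexes. In the study, everolimus was used to inhibit the p70S6K/RPS6 branch downstream of mTORC1.

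The authors deposited FPKM, that is, fragments counted per kilobase of a gene's transcript and scaled to a library size, here not the plain total of reads. These values are compared here on the scale of log2(FPKM + 1), which understates changes of genes near 0. FPKM and the exon lengths of GENCODE M21 gave back whole reads for 98.3% to 98.8% of values under 20 reads in these 6 libraries, against 20% by chance. The recovered reads numbered 18722166 to 20341034 per vehicle library and 17164674 to 25183087 per everolimus library. The library size that the FPKM imply was 1.123 to 1.146 times the recovered reads with vehicle and 1.1 to 1.202 times with everolimus. It was 1.155 to 1.367 times with MLN0128 but 0.5848 to 0.5954 times in normal liver. By plain totals normal-liver levels would therefore be lower relative to the tumors than the FPKM given here. Across genes, which are not independent replicates, libraries under the same treatment correlated with r of 0.971 to 0.990 and libraries under different treatments with r of 0.944 to 0.968. Unless treat is named, an adjusted p is from the moderated test of limma, adjusted by Benjamini-Hochberg over the 14397 genes that reached 0.5 FPKM in 3 or more of the 12 libraries. The p-values rest on the spread between mice within groups (n = 3 each). That spread was pooled over all 12 libraries, with 8 residual degrees of freedom, so normal livers and MLN0128 tumors also enter it.

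*Rictor* was at 1.19, 1.5 and 1.05 FPKM with vehicle and 1.58, 1.93 and 1.62 with everolimus (log2 fold change 0.27, SE 0.14, adjusted p = 0.220). *Tsc2* was at 2.24, 2.01 and 2.31 FPKM with vehicle and 2.78, 2.82 and 2.87 with everolimus (log2 fold change 0.26, SE 0.12, adjusted p = 0.169). All 3 everolimus tumors lay above all 3 vehicle tumors for both deleted genes, as they did for 17.6% of all tested genes, and neither difference passed the test. These FPKM cover whole genes, not the floxed exons alone. *Alb*, the main liver plasma protein, was at 1780, 953 and 1840 FPKM with vehicle and 1320, 4860 and 851 with everolimus, and the list of hepatocyte markers summed to 16460, 11260 and 15200 FPKM with vehicle, 11030, 18860 and 10920 with everolimus and 130800, 145800 and 146300 in normal liver. The second vehicle tumor had the lowest *Alb* of its group, and the second everolimus tumor the highest of all 6.

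The series used mice of both sexes, and sex-linked genes set a pair of MLN0128 libraries apart. All 3 vehicle tumors, all 3 everolimus tumors and MLN0128 tumor 3 expressed the Y-linked genes *Ddx3y*, *Eif2s3y*, *Kdm5d* and *Uty* and had at most 0.0699 FPKM of *Xist*, the RNA that silences an X chromosome in female cells. *Ddx3y* was at 11.7, 14.6 and 10.3 FPKM with vehicle and 9.6, 15.1 and 16 with everolimus. In MLN0128 tumors 1 and 2 all 4 Y-linked genes were listed at 0, and *Xist* was at 191 and 155 FPKM. The comparison of everolimus with vehicle was therefore between libraries of the same kind in this respect, whereas in the direct contrast of everolimus with MLN0128 the drug and this difference cannot be told apart for those 2 tumors. Direct values are given with and without them in an alternative that was chosen after seeing the data and leaves 1 MLN0128 library, assumed to vary like the other groups. In that fit treat called 80 genes lower and 9 higher for everolimus against vehicle.

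With everolimus, more genes were called lower than higher. By limma's treat test, which asks whether a change exceeds a given size (here a fold change of 1.5), 82 genes were lower (0.570% of those tested) and 5 were higher (0.0347%) at an adjusted p under 0.05. With the moderated test and an observed fold change above 1.5, 675 genes were lower (4.69%) and 292 higher (2.03%). With no requirement on the fold change, 871 genes were lower (6.05%) and 544 higher (3.78%). These last shares are the background for the gene groups described here. At an unadjusted p under 0.05, 1945 of the 14397 tested genes were lower and 1920 higher. Those 2 counts are the background for members counted at an unadjusted p. All 3 everolimus tumors lay below all 3 vehicle tumors for 2127 genes (14.8%) and above them for 2541 (17.6%), so that rises outnumbered falls by this count of groups that did not overlap. Over all tested genes the median log2 fold change was 0.03. Leaving out a single library changed the counts by over 1.5 times in some cases. Treat called 50 genes lower without everolimus tumor 1 and 51 without vehicle tumor 3, and the moderated rule then gave 371 and 367 lower and 112 and 145 higher. Without vehicle tumor 1, 3 genes were higher by treat and 182 by the moderated rule, and without vehicle tumor 2 or MLN0128 tumor 3 treat called 8 and 9 genes higher.

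**Figure D1:**
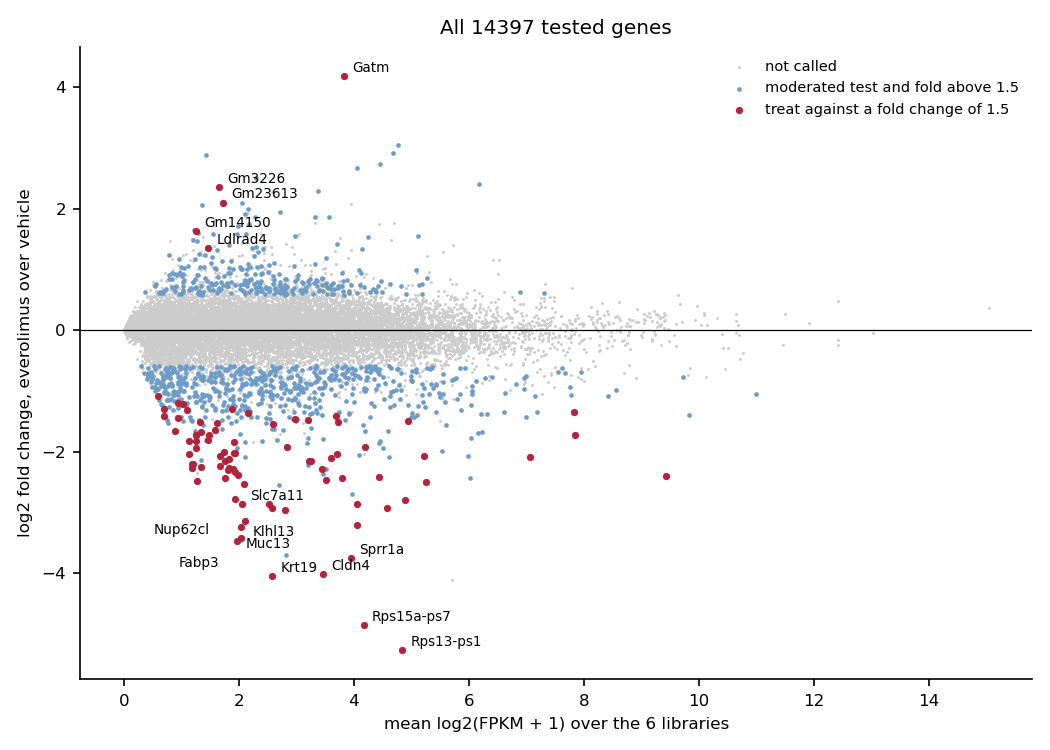
Log2 fold change of everolimus over vehicle on the log2(FPKM + 1) scale (vertical axis) against the mean log2(FPKM + 1) of the 6 libraries (horizontal axis), with 1 point per tested gene. Red points were called by treat (82 lower, 5 higher), blue points only by the moderated rule with its fold threshold of 1.5, and most red points lie below 0, with *Gatm* the highest point at 4.19.

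*Krt19*, *Cldn4*, *Muc13* and *Sprr1a* were among the largest falls. *Krt19* (ENSMUSG00000020911.14, GRCm38 chr11:100140810-100148665, minus strand), the keratin that marks bile duct cells, was at 29.6, 9.49 and 44 FPKM with vehicle and 0.257, 0.944 and 0.325 with everolimus. The everolimus tumors thus lay within the range of the normal livers, at 0.65, 0.342 and 0.207, or just above it, and the log2 fold change was -4.04 (SE 0.42, treat adjusted p = 0.00115). *Cldn4*, a tight junction claudin, went from 24.1, 79.5 and 42.6 FPKM to 0.262, 5.44 and 1.55, with a log2 fold change of -4.02 (treat adjusted p = 0.0108). *Muc13*, a transmembrane mucin, went from 13, 7.48 and 17.6 FPKM to 0.0349, 0.391 and 0.119 (-3.47, treat adjusted p = 6.80e-05). *Sprr1a*, a cornified envelope protein known from wounded and stressed epithelia, was listed at 0 FPKM in all 3 normal livers, at 47.7, 46.4 and 77.5 with vehicle and at 0.985, 4.71 and 5.48 with everolimus (-3.76, treat adjusted p = 0.00524). In all of these genes the lowest vehicle tumor lay above the highest everolimus tumor.

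The other protein-coding genes among the 15 largest treat-called falls had varied roles. *Ptgr1*, an NADPH-dependent reductase of prostaglandins and leukotrienes, fell from 50.6 ± 13.3 to 4.44 ± 0.332 FPKM (SD, n = 3 each), close to the 3.39 ± 0.315 of normal liver (n = 3). *Klhl13*, a substrate adaptor of a cullin ubiquitin ligase, fell from 11.8 ± 1.69 to 0.474 ± 0.369 FPKM, below normal liver at 2.37 ± 0.263. *Hspb8*, a small heat shock protein that works with BAG3 in selective autophagy, was abundant in normal liver at 101 ± 10.1 FPKM, stood at 64.9 ± 8.77 with vehicle and fell to 8.95 ± 6.89. *Fabp3*, a fatty acid binding protein of muscle and heart, *Nup62cl*, *Cpe* (carboxypeptidase E), *Rnase1* (a secreted ribonuclease) and *Ckb* (brain-type creatine kinase) had log2 fold changes of -3.41, -3.24, -2.96, -2.93 and -2.86. *Slc7a11* is described with the glutathione genes. Each of the 12 largest protein-coding falls among the 82, from *Krt19* to *Ckb*, kept its moderated call in all 22 alternative fits. All 133 named genes with a call kept their direction in them, but many of these fits could not change a direction. By treat, the vehicle tumors were above normal liver in 70 of the 82 genes and below it in 3. The mean log2 value with everolimus was above that of normal liver in 53 of the 82.

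A pair of ribosomal protein pseudogenes had the largest negative values of all. *Rps13-ps1* (ENSMUSG00000066362.5, GRCm38 chr8:87047689-87048226, plus strand) was at 233, 119 and 200 FPKM with vehicle and 4.82, 2.76 and 3.51 with everolimus, and *Rps15a-ps7* at 106, 79.1 and 105 and 3.92, 1.6 and 1.95. The MLN0128 tumors were at 142, 4.97 and 96.3 and 30.4, 5.75 and 45.1 FPKM, so that the second of them was the lowest of its group and still above all 3 everolimus tumors for both genes. These processed pseudogenes share most of their sequence with their parent genes, and the authors' counting could divide reads between them, so the values are uncertain. The parent gene *Rps13* was at 116, 159 and 108 FPKM with vehicle and 204, 160 and 186 with everolimus, and *Rps15a* at 90.8, 98 and 67.7 with vehicle and 116, 75.8 and 93.1 with everolimus. Neither parent gene therefore showed a fall like that of its pseudogene.

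**Figure D2:**
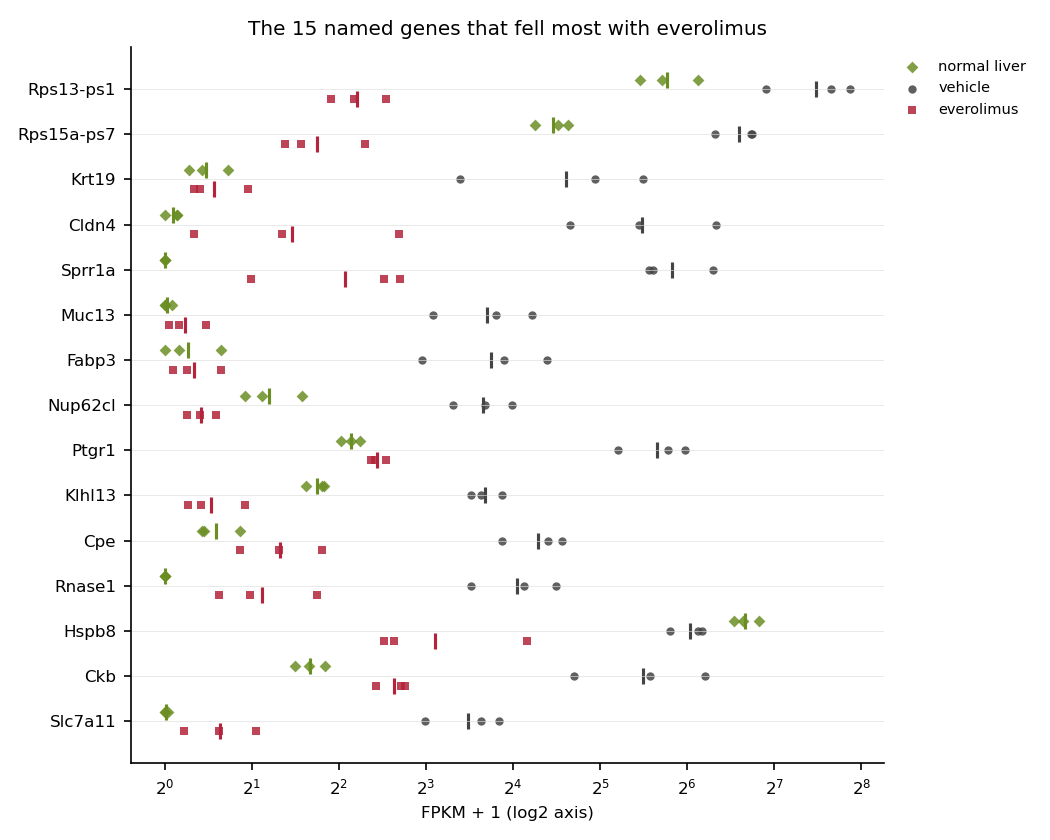
FPKM + 1 on a log2 axis for the 15 named genes with the largest treat-called falls, with 1 symbol per library for normal liver, vehicle and everolimus (n = 3 each) and vertical ticks at the mean of the log2 values. In every gene shown the 3 everolimus tumors lie below the 3 vehicle tumors, and in *Hspb8*, *Klhl13*, *Nup62cl* and both pseudogenes they also lie below the 3 normal livers.

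Lysosomal and V-ATPase genes fell in part, and none was called higher. Of 45 lysosomal hydrolases tested, 16 were lower and 0 higher, with a median log2 fold change of -0.47 against 0.03 over all tested genes, and 27 lay in all 3 everolimus tumors below all 3 vehicle tumors. Over all tested genes 6.05% were called lower by the same test, and 14.8% lay below without overlap. The 45 genes summed to 1943, 1876 and 2108 FPKM with vehicle and 1084, 1159 and 1155 with everolimus. The 32 tested proteins of the lysosomal membrane and related cargo had 12 lower and 0 higher members and a median of -0.27. The V-ATPase, the proton pump that acidifies the lysosome, had 13 of 18 tested subunit genes lower and 0 higher, with a median of -0.56. By unadjusted p under 0.05 the higher members numbered 0, 1 and 0 in these lists. Limma voom on reads recovered from FPKM gave 0 in each at an adjusted p under 0.05. All counts of list members by voom given here use that adjusted threshold. All 18 subunit values were negative, and 17 of the subunits did not overlap between the groups. Without vehicle tumor 3 the numbers of lower members were 10, 6 and 8 for hydrolases, membrane proteins and V-ATPase, without everolimus tumor 1 they were 10, 7 and 8, and without vehicle tumor 1 the V-ATPase count was 8.

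*Ctsl* (ENSMUSG00000021477.9, GRCm38 chr13:64359337-64370890, minus strand), the cysteine protease cathepsin L, and *Gla* had the smallest adjusted p of the hydrolases. The FPKM of *Ctsl* were 346, 358 and 377 with vehicle and 130, 132 and 165 with everolimus, a fall by a factor of 2.53 on the FPKM + 1 scale (log2 -1.34, SE 0.15, treat adjusted p = 0.0256). *Gla*, alpha-galactosidase A, was at 12.5, 16.9 and 13.8 FPKM with vehicle and 4.17, 4.92 and 4.4 with everolimus (-1.48, treat adjusted p = 0.0161). *Hexa*, the alpha subunit of beta-hexosaminidase, was at 49.4, 43.2 and 61.5 FPKM and 17.4, 17.3 and 17.5 (-1.49, treat adjusted p = 0.0256). The everolimus tumors differed little from each other in all 3 genes, and none overlapped with a vehicle tumor. *Ctsb* and *Ctsd*, the proteases cathepsin B and D, passed the moderated test with log2 fold changes of -1.09 and -0.89 (adjusted p = 0.00222 and 0.00294). *Gaa*, acid alpha-glucosidase, did not pass (-0.06, adjusted p = 0.851).

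At the lysosomal membrane, *Lamp1*, a heavily glycosylated coat protein, was at 243, 227 and 262 FPKM with vehicle and 148, 176 and 152 with everolimus (-0.62, adjusted p = 0.0133). Its call was lost without vehicle tumor 3 (0.0688), everolimus tumor 1 (0.0670) or everolimus tumor 3 (0.0519). *Cd63*, a tetraspanin of late endosomes, was at 95.2, 88.6 and 89.4 FPKM and 35.8, 30.1 and 44 (-1.31, adjusted p = 0.00258), far above the 3.02, 5.27 and 2.73 of the normal livers in both groups. *Gpnmb*, a glycoprotein of lysosomes and melanosomes that is also high in lipid-laden macrophages, fell from 4.45, 7.05 and 8.21 FPKM to 0.488, 0.512 and 1.22 (-2.11, treat adjusted p = 0.0135). *Npc2*, which carries cholesterol inside the lysosome, and *Ostm1*, a subunit of its chloride transporter, had log2 fold changes of -0.57 and -0.74 (adjusted p = 0.00807 and 0.00369). The cholesterol exporter *Npc1* (-0.08, adjusted p = 0.754) and the calcium channel *Mcoln1* (-0.26, adjusted p = 0.132) did not pass the test.

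Among V-ATPase subunits, *Atp6v0e2* (ENSMUSG00000039347.7, GRCm38 chr6:48537615-48541801, plus strand), a small subunit of the membrane sector, stood apart. It was at 4.29, 4.3 and 4.15 FPKM with vehicle, 0.845, 0.971 and 0.657 with everolimus and 5.97, 3.78 and 4.14 with MLN0128, so that it was low in the everolimus tumors and not in the MLN0128 tumors. Its log2 fold change against vehicle was -1.53 (SE 0.14, treat adjusted p = 0.00559), and everolimus was below MLN0128 by a log2 difference of -1.61 (adjusted p = 0.000567 for the direct contrast, and -1.50 with adjusted p = 0.00557 without MLN0128 tumors 1 and 2). The other subunits named here had smaller values. *Atp6v1a*, the catalytic subunit of the cytosolic sector, was at 25.7, 30.3 and 36.2 FPKM with vehicle and 14.8, 19.4 and 14.7 with everolimus (-0.87, adjusted p = 0.00708). *Atp6v0d1*, *Atp6v1h* and the accessory protein *Atp6ap2* had log2 fold changes of -0.83, -0.68 and -0.76, with adjusted p-values of 0.00426, 0.00387 and 0.00585. *Atp6v0d2*, an osteoclast and macrophage form with under 2 FPKM in every tumor, did not pass (-0.42, adjusted p = 0.169).

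**Figure D3:**
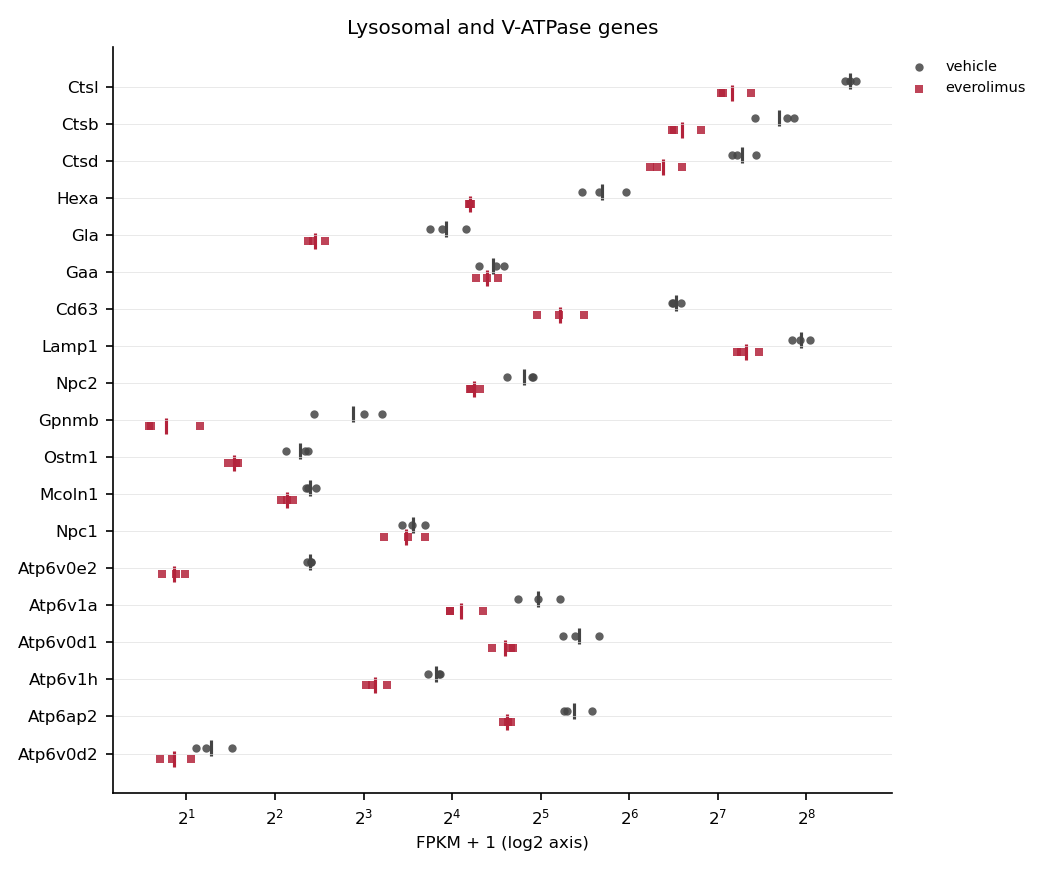
FPKM + 1 on a log2 axis for 19 lysosomal and V-ATPase genes, with 1 symbol per tumor (n = 3 vehicle, n = 3 everolimus) and vertical ticks at the mean of the log2 values. The groups are apart in most rows, widest in *Gpnmb*, *Atp6v0e2*, *Hexa* and *Gla*, and overlap in *Gaa* and *Npc1*.

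Promoters of these genes were searched on both strands for CACGTG, the E-box core, for TCACGTGA, the 8-base palindrome known as the core of the CLEAR element bound by TFEB and TFE3, and for TGATGCAA, a C/EBP-ATF element bound by ATF4. Every TCACGTGA also holds CACGTG. RefSeq promoters of GRCm38.p6, from 250 bases before to 50 bases after a gene's start, were at hand for 36 of the 45 hydrolases, 28 of the 35 listed membrane proteins and 12 of the 18 V-ATPase subunits. TCACGTGA stood in 11.1%, 14.3% and 25% of them, against 1.12% of 27025 genes, and CACGTG in 33.3%, 17.9% and 33.3% against 8.09%. These 27025 are all genes with a promoter at hand, whether or not they were among the 14397 tested, and they serve for every motif given here. A background of tested genes alone was not computed. TGATGCAA stood in 0 promoters of the 3 lists. A match describes the letters in this window and does not show that a factor binds. Among the members that fell and had a promoter in the table, 4 of 12 hydrolases, 2 of 11 membrane proteins and 3 of 9 V-ATPase subunits held TCACGTGA. The 5 of them with the smallest p are printed here 5′ to 3′ on the strand of the gene, with the motif in capitals. They lie on GRCm38.p6 at chrX:134600956-134601255 (*Gla*, minus strand), chr7:142387778-142388077 (*Ctsd*, minus strand), chr2:164833523-164833822 (Ctsa, which encodes cathepsin A, plus strand), chr8:105566015-105566314 (*Atp6v0d1*, minus strand) and chr16:44139210-44139509 (*Atp6v1a*, minus strand).
Gla: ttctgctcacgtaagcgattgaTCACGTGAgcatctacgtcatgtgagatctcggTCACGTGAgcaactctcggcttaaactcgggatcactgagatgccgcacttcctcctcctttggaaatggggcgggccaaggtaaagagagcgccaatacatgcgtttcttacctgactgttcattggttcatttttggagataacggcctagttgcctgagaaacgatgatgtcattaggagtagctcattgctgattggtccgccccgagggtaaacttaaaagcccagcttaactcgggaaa
Ctsd: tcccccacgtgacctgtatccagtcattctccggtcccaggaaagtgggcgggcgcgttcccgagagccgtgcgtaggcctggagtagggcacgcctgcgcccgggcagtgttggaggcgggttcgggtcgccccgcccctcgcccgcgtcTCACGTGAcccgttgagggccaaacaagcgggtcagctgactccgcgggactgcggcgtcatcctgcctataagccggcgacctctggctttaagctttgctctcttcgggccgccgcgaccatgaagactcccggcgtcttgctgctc
Ctsa: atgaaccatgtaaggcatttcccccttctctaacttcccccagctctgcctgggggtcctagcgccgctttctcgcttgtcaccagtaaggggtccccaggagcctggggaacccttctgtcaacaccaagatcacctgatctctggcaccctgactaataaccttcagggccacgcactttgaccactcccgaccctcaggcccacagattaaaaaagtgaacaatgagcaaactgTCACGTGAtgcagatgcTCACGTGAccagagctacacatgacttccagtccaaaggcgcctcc
Atp6v0d1: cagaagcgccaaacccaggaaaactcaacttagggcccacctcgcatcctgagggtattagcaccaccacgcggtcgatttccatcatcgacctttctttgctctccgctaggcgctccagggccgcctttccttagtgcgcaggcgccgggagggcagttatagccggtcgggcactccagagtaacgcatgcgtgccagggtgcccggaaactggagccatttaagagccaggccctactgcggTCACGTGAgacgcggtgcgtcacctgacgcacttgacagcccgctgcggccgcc
Atp6v1a: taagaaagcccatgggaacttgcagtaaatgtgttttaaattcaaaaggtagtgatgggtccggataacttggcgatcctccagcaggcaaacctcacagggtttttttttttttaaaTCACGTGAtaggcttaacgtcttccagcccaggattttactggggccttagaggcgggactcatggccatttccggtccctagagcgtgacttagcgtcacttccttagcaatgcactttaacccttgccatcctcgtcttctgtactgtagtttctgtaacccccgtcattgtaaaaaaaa

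Autophagy genes and mTOR pathway components changed in few members. *Sqstm1*, the autophagy receptor p62 and a known NRF2 target, was at 177, 213 and 239 FPKM with vehicle and 59.6, 98.7 and 77.5 with everolimus (-1.42, adjusted p = 0.00343). Of 39 tested autophagy genes 3 were lower and 0 higher, with a median of -0.15. At an unadjusted p under 0.05 limma gave 1 higher, and voom gave 0 at an adjusted p under 0.05. The others that fell were *Gabarap* (-0.63), an LC3-like protein, and *Optn* (-0.98), a receptor of selective autophagy. *Map1lc3b* (-0.57, adjusted p = 0.0546) and the initiating kinase *Ulk1* (-0.19, adjusted p = 0.696) did not pass. Of 47 tested mTOR components and nutrient sensors, 4 were lower and 1 higher, with a median of -0.09. Over all tested genes 6.05% were lower and 3.78% higher by the same test. *Castor2*, a paralog of the cytosolic arginine sensor, fell from 3.43, 2.27 and 3.69 FPKM to 1.19, 0.856 and 1.32 (-0.95, adjusted p = 0.00316), the Ragulator subunit *Lamtor1*, the Rag GTPase *Rragc* and the folliculin partner *Fnip2* fell with log2 fold changes of -0.43, -0.36 and -0.55, and the RHEB paralog *Rhebl1* rose by 0.59. *Mtor*, *Rptor* and *Deptor*, an inhibitor of both complexes, had values of 0.12, 0.25 and 0.29 (adjusted p = 0.549, 0.232 and 0.216). Of the 8 calls named in this paragraph, those of *Sqstm1* and *Castor2* held in all 22 alternative fits. The other 6 were lost without everolimus tumor 1, with adjusted p of 0.0615 (*Gabarap*), 0.0754 (*Optn*), 0.104 (*Lamtor1*), 0.106 (*Rragc*), 0.137 (*Fnip2*) and 0.0578 (*Rhebl1*), and at least 1 other library also ended each of these calls.

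Genes that make and use glutathione fell in part. Of 23 tested genes of glutathione metabolism and the NRF2 response, the antioxidant programme driven by the transcription factor NRF2, 10 were lower and 0 higher, with a median of -0.57. Over all tested genes 6.05% were lower and 3.78% higher by the moderated test. At an unadjusted p under 0.05 limma gave 4 higher members, beside 1920 of all 14397 tested genes, and voom gave 0 at an adjusted p under 0.05. *Slc7a11* (ENSMUSG00000027737.10, GRCm38 chr3:49892526-50443614, minus strand), the light chain of the cystine/glutamate antiporter that supplies cysteine for glutathione, was at 6.94, 11.4 and 13.3 FPKM with vehicle and 0.167, 0.534 and 1.06 with everolimus, and at 0.0266, 0 and 0 FPKM in normal liver. Its log2 fold change was -2.86 (SE 0.22, treat adjusted p = 0.000332). *Gclc*, the catalytic subunit of the rate-limiting enzyme of glutathione synthesis, was at 80, 101 and 123 FPKM and 38.5, 52.5 and 36.1 (-1.24, adjusted p = 0.00478). *Srxn1*, which repairs oxidized peroxiredoxins, fell from 24.1, 14.4 and 41.1 FPKM to 2.83, 8.98 and 2.66 (-2.29, adjusted p = 0.00790), and *Gsta1*, a glutathione transferase whose close paralogs could share its reads, from 16.4, 7.1 and 25.4 to 0.443, 1.8 and 1.43 (-2.86, treat adjusted p = 0.0261). *Gpx2* (glutathione peroxidase 2) and *Nqo1* (a quinone reductase and common readout of NRF2) had log2 fold changes of -1.15 and -1.09. *Nfe2l2*, which encodes NRF2 itself, was at 17.7, 16.2 and 17.7 FPKM with vehicle and 20.8, 22.2 and 22.4 with everolimus (0.33, adjusted p = 0.0658). The list's count was 6, 4, 4 and 5 without vehicle tumor 1, vehicle tumor 3, everolimus tumor 1 and everolimus tumor 3, and *Nqo1* was lost without vehicle tumor 2 or 3 or everolimus tumor 1 or 3 (adjusted p up to 0.0874).

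*Slc7a11* is also a target of ATF4, the transcription factor of the amino acid response. Of 42 tested ATF4 and amino acid stress genes 6 were lower and 1 higher, with a median of -0.34. *Ddit3*, the stress factor CHOP, fell from 13.3, 14.3 and 13.1 FPKM to 4.79, 4.67 and 8.39 (-1.11, adjusted p = 0.00585), and *Nupr1*, a small stress-induced chromatin protein, from 35.9, 38.7 and 42.1 to 3.2, 2.89 and 13.3 (-2.69, adjusted p = 0.0103), with the third everolimus tumor highest in both. *Slc3a2*, the heavy chain that pairs with SLC7A11, fell as well (-0.81, adjusted p = 0.0326). *Pycr1*, the last enzyme of proline synthesis, moved the other way, from 3.25, 4.58 and 3.17 FPKM to 7.05, 6.3 and 7.15 (0.76, adjusted p = 0.00596). *Atf4* itself was at 148, 168 and 130 FPKM with vehicle and 96.9, 86.3 and 141 with everolimus (-0.48, adjusted p = 0.127), and the targets *Asns* (asparagine synthetase, -0.31, adjusted p = 0.682) and *Chac1* (a glutathione-degrading enzyme, -0.68, adjusted p = 0.0765) did not pass. The number of lower members ranged from 2 without everolimus tumor 1 to 11 without everolimus tumor 3, and was 3, 4, 3 and 3 without vehicle tumors 1, 2 and 3 and everolimus tumor 2. *Nupr1* was lost without everolimus tumor 1 (adjusted p = 0.0518), and *Slc3a2* without any vehicle tumor or everolimus tumor 1 or 2 (up to 0.114).

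TGATGCAA stood in the promoters of 9 of 33 ATF4-list genes with a promoter in the table (27.3%), against 1.03% of all genes. The promoter of *Slc7a11* held it once on each strand, chr3:50443564-50443863 of GRCm38.p6 on the minus strand, printed 5′ to 3′ with both matches in capitals as the largest fall of the list.
Slc7a11: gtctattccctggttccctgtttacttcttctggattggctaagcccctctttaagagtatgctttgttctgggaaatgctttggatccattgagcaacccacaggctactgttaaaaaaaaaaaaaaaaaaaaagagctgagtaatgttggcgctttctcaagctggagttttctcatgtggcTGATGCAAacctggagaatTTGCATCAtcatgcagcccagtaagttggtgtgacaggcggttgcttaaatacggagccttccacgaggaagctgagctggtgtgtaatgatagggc

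About as many interferon-stimulated genes were called lower as were not called. Of 32 tested, 17 were lower and 0 higher, against 6.05% lower and 3.78% higher over all tested genes. The median log2 fold change was -0.79, the lowest median of the 42 lists, and no member was higher at an unadjusted p under 0.05 or by voom. *Rsad2* (ENSMUSG00000020641.16, GRCm38 chr12:26442746-26456452, minus strand), the antiviral enzyme viperin, was at 7.25, 7.34 and 8.15 FPKM with vehicle and 0.452, 1.13 and 0.565 with everolimus (-2.34, SE 0.20, treat adjusted p = 0.000667). *Isg15*, a ubiquitin-like modifier, was at 26.4, 12.7 and 20.7 FPKM and 2.45, 4.98 and 3.56 (-2.15, treat adjusted p = 0.0165), below the 28.8, 24.2 and 22.3 of the normal livers. *Oasl1*, an oligoadenylate synthetase-like protein, and *Ifit2*, which blocks viral translation, fell with log2 fold changes of -2.16 and -1.25 (adjusted p = 0.000754 and 0.00106). *Irf7*, the transcription factor that amplifies the interferon response, was at 11.5, 5.88 and 13.6 FPKM and 1.85, 6.63 and 2.68 (-1.32, adjusted p = 0.0442), with the second vehicle tumor below the second everolimus tumor, and 13 of 22 alternatives ended its call. The list's median in the vehicle tumors was 0.14, -0.33 and 0.17 relative to the vehicle mean of each gene, and -0.88, -0.61 and -0.88 in the everolimus tumors. The number of lower members was 9, 10 and 9 without vehicle tumor 1, vehicle tumor 3 and everolimus tumor 1.

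Few antigen presentation genes were called. Of 20 tested genes 2 were lower and 1 higher, with a median of 0.04. *B2m*, the light chain of class I molecules, was at 601, 372 and 666 FPKM and 206, 421 and 221 (-0.98, adjusted p = 0.0485), and *Tapbp*, which loads peptides onto them, had a value of -0.96 (adjusted p = 0.0315), while the immunoproteasome subunit *Psmb10* rose (0.60, adjusted p = 0.0427). All 3 of these calls were lost without vehicle tumor 1 or 3 or everolimus tumor 1 or 3, with adjusted p up to 0.183, 0.130 and 0.162, and without everolimus tumor 2 the list had 5 lower members. The class I heavy chain *H2-K1* (-0.40, adjusted p = 0.281) and the class II chain *H2-Aa* (0.24, adjusted p = 0.717) did not pass, and the groups overlapped in both.

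After the interferon result was seen, promoters were also searched for GAAANNGAA, where N is any base, a shortened form of the interferon-stimulated response element. It stood in 16 of 24 interferon-stimulated genes with a promoter in the table (66.7%), against 9.76% of all genes, as is known of genes that are defined by this response, and in 9 of the 14 that fell. The promoters of the genes with the smallest p that hold it, *Rsad2* at chr12:26456403-26456702 and *Isg15* at chr4:156200769-156201068 of GRCm38.p6, both on the minus strand, are printed 5′ to 3′ with all matches on either strand in capitals.
Rsad2: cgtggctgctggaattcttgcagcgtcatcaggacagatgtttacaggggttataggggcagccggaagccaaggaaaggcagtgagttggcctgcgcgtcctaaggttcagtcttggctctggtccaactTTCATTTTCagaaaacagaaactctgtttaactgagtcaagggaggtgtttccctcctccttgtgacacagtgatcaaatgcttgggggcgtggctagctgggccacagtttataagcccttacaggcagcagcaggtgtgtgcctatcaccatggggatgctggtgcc
Isg15: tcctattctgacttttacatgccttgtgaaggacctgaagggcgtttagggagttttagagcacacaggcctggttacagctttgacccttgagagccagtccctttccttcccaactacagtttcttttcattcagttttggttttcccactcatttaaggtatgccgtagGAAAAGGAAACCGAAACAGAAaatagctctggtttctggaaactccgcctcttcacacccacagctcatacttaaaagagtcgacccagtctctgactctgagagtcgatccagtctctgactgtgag

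Fetal and biliary genes of the tumors fell in part. *Afp* (ENSMUSG00000054932.6, GRCm38 chr5:90490737-90508907, plus strand), alpha-fetoprotein of the fetal liver, was at 1950, 1350 and 1520 FPKM with vehicle and 247, 232 and 466 with everolimus (-2.40, SE 0.25, treat adjusted p = 0.00271), a fall by a factor of 5.30 on the FPKM + 1 scale that left it far above the 2.53, 2.23 and 2.05 of the normal livers. *Mdk*, the growth factor midkine, fell from 6.45, 8.1 and 9.76 FPKM to 0.32, 0.898 and 1.06 (-2.38, treat adjusted p = 0.000489), and *Cldn6*, a claudin of embryonic epithelia, from 16.7, 20.9 and 12.7 to 2.21, 5.83 and 4.06 (-1.86, adjusted p = 0.00274). *H19*, the imprinted fetal RNA, was at 5360, 4840 and 3880 FPKM with vehicle and 6980, 5140 and 7530 with everolimus, and its imprinted neighbour *Igf2* at 57, 50.5 and 52.2 and 89, 71.2 and 94.5, with log2 fold changes of 0.47 and 0.66 (adjusted p = 0.414 and 0.0658). *Gpc3* (glypican 3) and *Igf2bp3* (an RNA-binding protein of fetal tissue) did not pass (-0.66 and 0.33, adjusted p = 0.177 and 0.165). In all, 7 of 28 oncofetal and progenitor genes were lower and 2 higher, with a median of -0.39. The risers, *Dlk1* (0.92) and the guidance receptor *Robo1* (0.55), lost their calls without either of vehicle tumors 1 and 3 or everolimus tumors 1 and 3 (adjusted p up to 0.101 and 0.113).

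Of 14 tested biliary markers 0 were higher by limma or voom at an adjusted p under 0.05 (1 by limma at an unadjusted p under 0.05). The list's median was -0.21, and 5 members were lower. Beside *Krt19* and *Cldn4* these were *Epcam*, an epithelial adhesion molecule (3.96, 5.23 and 4.17 FPKM with vehicle, 0.311, 1.72 and 0.413 with everolimus, -1.66, adjusted p = 0.00944), the transcription factor *Sox9* (-1.02, adjusted p = 0.0194) and the tetraspanin *Tspan8* (-1.07, adjusted p = 0.0136). *Krt7* was under the filter and was not tested. The second everolimus tumor was the highest of its group in all 5 fallen genes, and without it the list's median was -0.53. Without everolimus tumor 1, 3 of the 5 calls were left, as those of *Sox9* (adjusted p = 0.0846) and *Tspan8* (0.0664) were lost. *Sox9* also lost its call without vehicle tumor 3 or everolimus tumor 3, and *Tspan8* without vehicle tumor 1. In these bulk samples, fewer cells of a type and less RNA per cell cannot be told apart.

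Acute phase and iron genes fell in 5 of 25 tested members, with 0 higher and a median of -0.27. At an unadjusted p under 0.05 limma gave 1 higher, and voom gave 0 at an adjusted p under 0.05. *Saa3*, a serum amyloid made outside the classical hepatic response, was at 105, 69.3 and 63.1 FPKM with vehicle and 5.14, 16.3 and 12.3 with everolimus (-2.80, treat adjusted p = 0.0350), whereas the hepatic *Saa1* was at 8.27, 0.555 and 6.25 and 7.05, 34.9 and 8.54 (1.57, adjusted p = 0.226). *Hamp*, the iron hormone hepcidin, was at 148, 59.5 and 199 FPKM and 20, 42.5 and 48.9 (-1.77, adjusted p = 0.0319), and *Fth1*, ferritin heavy chain, at 2780, 2840 and 3160 and 1370, 1310 and 1550 (-1.05, adjusted p = 0.0153). The transferrin receptor *Tfrc* (-0.62, adjusted p = 0.201) and the metallothionein *Mt1* (-0.30, adjusted p = 0.770) did not pass. The *Hamp* and *Fth1* calls were lost without vehicle tumor 3 (0.131 and 0.0695) or everolimus tumor 1 (0.130 and 0.0610), that of *Hamp* also without vehicle tumor 1, and the list's count then fell to 1, 1 and 2, and to 3 without everolimus tumor 3. *Hamp* was lower with everolimus than with MLN0128, at 114, 191 and 88.3 FPKM, in the direct contrast (-1.81, adjusted p = 0.0310). That call was lost without MLN0128 tumors 1 and 2 (-1.32, adjusted p = 0.293), and without MLN0128 tumor 1, MLN0128 tumor 2, everolimus tumor 1 or everolimus tumor 3 alone (adjusted p = 0.0879, 0.0779, 0.0976 and 0.0693).

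The rise that stood out was that of *Gatm* (ENSMUSG00000027199.14, GRCm38 chr2:122594467-122611303, minus strand), glycine amidinotransferase, the first enzyme of creatine synthesis. It was at 2.35, 2.34 and 2.29 FPKM in the vehicle tumors, nearly the same in all 3, and at 80.5, 43 and 61 in the everolimus tumors, above the 8.96, 9.52 and 9.45 of the normal livers. The log2 fold change was 4.19 (SE 0.36, treat adjusted p = 0.000417), a rise by a factor of 18.2 on the FPKM + 1 scale, and it was the largest rise of all tested genes. The MLN0128 tumors were at 6.73, 1.59 and 7.33 FPKM, and everolimus exceeded MLN0128 by 3.46 in the direct contrast (adjusted p = 0.00146), and by 2.86 without MLN0128 tumors 1 and 2 (adjusted p = 0.00271). The brain-type creatine kinase *Ckb*, an enzyme of creatine use, was among the largest falls, at 46.7, 25 and 72.8 FPKM with vehicle and 5.76, 5.54 and 4.39 with everolimus.

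The other treat-called rises were of low level. *Ldlrad4* (ENSMUSG00000024544.9), an inhibitor of TGF-beta signaling, was at 0.449, 0.97 and 0.826 FPKM with vehicle and 3.04, 3.93 and 3.36 with everolimus, toward the 5.43, 5.71 and 4.31 of normal liver (1.35, treat adjusted p = 0.0385). *Gm3226* and *Gm14150*, processed pseudogenes of unknown function, were at 0.487, 0.389 and 0.32 and 0.31, 0.455 and 0.317 FPKM with vehicle and 5.6, 5.91 and 7.03 and 4.14, 2.49 and 3.2 with everolimus. *Gm23613*, annotated as a small nucleolar RNA, was at 0.536, 1.64 and 0 and 6.69, 4.56 and 6.46 FPKM. Both pseudogenes could share reads with their parent genes, and a transcript as short as *Gm23613* is poorly kept by common RNA-seq library steps, so these 3 values are uncertain. In the direct contrast both pseudogenes were also higher with everolimus than with MLN0128, by 2.47 (adjusted p = 1.76e-05) and 1.61 (adjusted p = 0.000567), and without MLN0128 tumors 1 and 2 by 2.20 (adjusted p = 0.00173) and 1.41 (adjusted p = 0.0175).

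The 15 largest rises by the moderated rule, chosen by rank, included *Gatm* and the following genes. *Cyp2e1*, an alcohol- and drug-oxidizing cytochrome P450 of pericentral hepatocytes, was at 10.2, 1.56 and 28.6 FPKM with vehicle and 75.3, 118 and 51.5 with everolimus (3.04, SE 0.67, adjusted p = 0.0170), against 4220, 5550 and 4240 in normal liver. *Mup3*, a major urinary protein whose family shares reads, was at 13.1, 1.95 and 18.8 and 54.1, 101 and 62.4 FPKM (2.92, adjusted p = 0.0142), and *Serpina3k*, a serine protease inhibitor with close paralogs, at 6.19, 2.38 and 10.7 and 37.6, 101 and 17.8 (2.67, adjusted p = 0.0115). The second vehicle tumor had the lowest value of its group and the second everolimus tumor the highest in these 3 genes. *Wfdc21*, a secreted whey acidic protein, the carboxylesterase *Ces3a*, the aldo-keto reductase *Akr1c6*, the cytochromes *Cyp2c50* and *Cyp2c54*, the paraoxonase *Pon1*, the complement component *C8a* and *Gulo*, the last enzyme of vitamin C synthesis, rose by 2.73, 2.50, 2.28, 2.09, 2.06, 1.99, 1.87 and 1.87 on the log2 scale. *Mup3* and *Serpina3k* lost their calls only with the 6 libraries fitted alone, and *Ces3a*, *Cyp2c50* and *Cyp2c54* kept an adjusted p under 0.05 in all 22 alternatives. In all of these genes except *Gatm* the everolimus tumors stayed far below the normal livers, as in *Pon1* at 8.56 ± 4.15 against 557 ± 50.5 FPKM (SD, n = 3 each).

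Single libraries decided some of these calls. Without everolimus tumor 1 the adjusted p was 0.0591 for *Cyp2e1*, 0.0562 for *Wfdc21*, 0.0802 for *Akr1c6*, 0.0543 for *Pon1* and 0.0705 for *C8a*, and without vehicle tumor 1 it was 0.0638 for *Gulo*. *Akr1c6*, *Wfdc21* and *C8a* were also lost without everolimus tumor 2, *Wfdc21* without vehicle tumor 1 or 2, and *C8a* without vehicle tumor 2 or 3. *Igfbp2*, a binding protein of insulin-like growth factors made by liver, was at 32.1, 18.5 and 47.6 FPKM with vehicle and 184, 144 and 171 with everolimus (2.40, adjusted p = 0.00669), and its call held in all 22 alternatives. *Nr0b2*, the bile acid-induced repressor SHP, was at 1.32, 5.03 and 1.63 FPKM and 8.18, 17.3 and 11.6 (1.95, adjusted p = 0.0241) and higher than with MLN0128 by 2.20 (adjusted p = 0.0177). Its call against vehicle was lost without vehicle tumor 1 or 3 or everolimus tumor 2 or 3 (up to 0.0976), and its direct call without MLN0128 tumor 1 (adjusted p = 0.0771), everolimus tumor 3 (0.0695) or both MLN0128 tumors 1 and 2 (0.115).

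**Figure D4:**
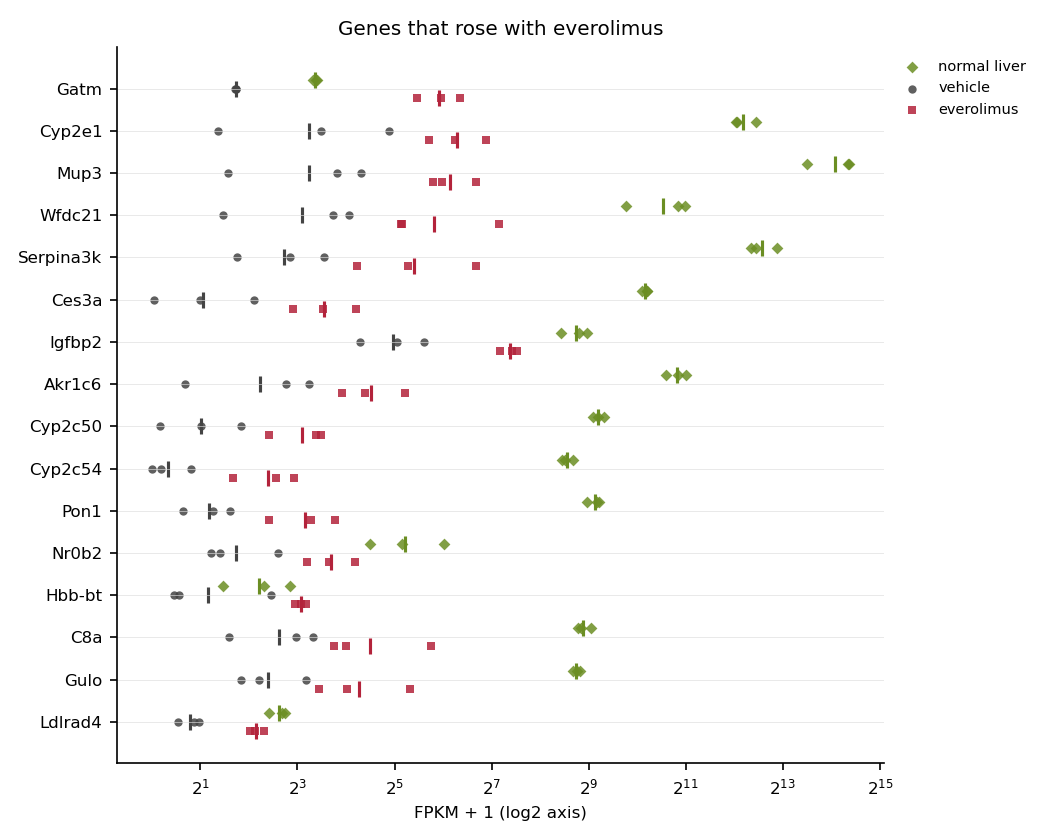
FPKM + 1 on a log2 axis for the 15 largest rises by the moderated rule and for *Ldlrad4*, with 1 symbol per library for normal liver, vehicle and everolimus (n = 3 each) and vertical ticks at the mean of the log2 values. The everolimus tumors lie above the vehicle tumors in every row, but above all 3 normal livers only in *Gatm* and *Hbb-bt*.

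The list of hepatocyte markers held no called rise. Of 26 tested hepatocyte markers and secreted proteins 0 were higher and 1 was lower, with a median of 0.18. At an unadjusted p under 0.05 limma gave 3 higher, and voom gave 0 at an adjusted p under 0.05. The fallen gene was *Ttr* (transthyretin, 1660, 1120 and 1730 FPKM with vehicle, 453, 716 and 538 with everolimus, -1.40, adjusted p = 0.0325), whose call was lost without vehicle tumor 1 or 3 or everolimus tumor 1 or 3. *Alb* (0.27, adjusted p = 0.812), *Apoa1* (-0.30, adjusted p = 0.549) and *Serpina1b* (0.85, adjusted p = 0.0826) did not pass. Of 30 cytochrome P450 and bile acid genes 3 were higher and 2 lower. Beside *Cyp2e1*, *Cyp2c37* and *Cyp4f14* rose (1.58 and 1.47), while *Cyp2a5* fell from 152, 70.9 and 305 FPKM to 17.3, 48.6 and 22.9 (-2.43, adjusted p = 0.0184) and *Cyp3a13* fell too (-1.25), both without a call when vehicle tumor 1 or 3 or everolimus tumor 1 or 3 was left out. The list's higher members numbered 5 without vehicle tumor 3 and 5 without everolimus tumor 3. *Cyp7a1*, the rate-limiting enzyme of bile acid synthesis, and *Cyp8b1*, which sets the share of cholic acid, had values of -0.23 and -0.98 (adjusted p = 0.838 and 0.188). The median of this list was 0.11, -0.53 and 0.43 in the vehicle tumors and 0.06, 0.86 and -0.07 in the everolimus tumors, so that its highest value was that of everolimus tumor 2 and its lowest that of vehicle tumor 2.

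Among hepatocyte transcription factors 1 of 21 rose, *Nr0b2*, and 0 fell (0 also by unadjusted p under 0.05 and by voom), with *Hnf4a* at -0.22 (adjusted p = 0.372) and *Cebpa* at 0.43 (adjusted p = 0.325). In the urea cycle and amino acid catabolism, 1 of 34 rose, *Gatm*, and 1 fell, the tyrosine aminotransferase *Tat*, from 150, 75.4 and 185 FPKM to 14.2, 56.8 and 32.3 (-2.07, adjusted p = 0.0191, lost without vehicle tumor 1 or 3 or everolimus tumor 1), with 2 lower members without vehicle tumor 2 or everolimus tumor 2. *Cps1* and *Gls2* did not pass (0.25 and 0.39, adjusted p = 0.690 and 0.189). Of 18 pericentral and Wnt-responsive genes 3 rose and 0 fell (1 by unadjusted p under 0.05, 0 by voom). The risers were *Cyp2e1*, the chemokine *Lect2* (1.34) and the ubiquitin ligase *Znrf3* (0.61), and *Lect2* and *Znrf3* were lost without vehicle tumor 1 or 3 or everolimus tumor 1 (adjusted p up to 0.121 and 0.111 over all alternatives). The higher members of this list numbered 1 without vehicle tumor 1 and 0 without everolimus tumor 1. The Wnt readouts *Glul*, *Axin2* and *Lgr5* did not pass (-0.45, 0.24 and 0.08, adjusted p = 0.178, 0.366 and 0.585).

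**Figure D5:**
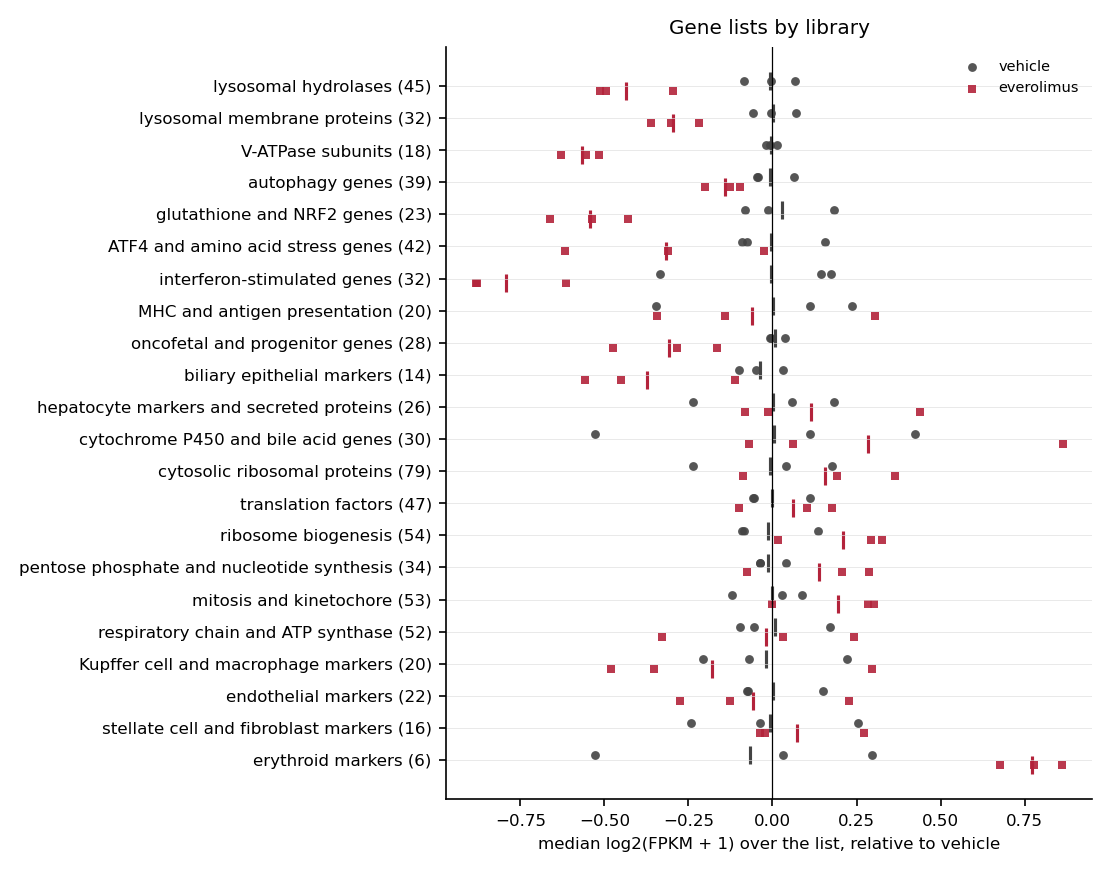
Median over each gene list of log2(FPKM + 1) relative to the mean of the vehicle tumors for each gene (horizontal axis), with 1 symbol per tumor (n = 3 vehicle, n = 3 everolimus), ticks at the mean and the number of tested genes in parentheses. The everolimus tumors lie below the vehicle tumors in the lists of the lysosome, V-ATPase, glutathione and interferon genes, while the groups overlap in ribosomal proteins, mitosis, respiratory chain and the endothelial, stellate cell and macrophage markers.

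In the growth machinery downstream of mTORC1, the moderated test called some ribosome biogenesis and nucleotide synthesis genes, all of them higher. Over all tested genes 6.05% were lower and 3.78% higher by that test. Of 79 cytosolic ribosomal proteins 0 were lower and 0 higher by limma's moderated test, with a median of 0.15, and of 47 translation factors 0 and 0, with a median of 0.06. Positive values numbered 73 of 79 and 31 of 47 in these lists, and 50 of 54 for ribosome biogenesis. Over all 14397 tested genes 6502 were negative. At an unadjusted p under 0.05 the lower and higher members were 0 and 4 for ribosomal proteins and 1 and 6 for translation factors, and voom called 1 translation factor higher and no other member. *Rps6*, whose protein is phosphorylated by p70S6K, was at 492, 578 and 444 FPKM with vehicle and 624, 487 and 597 with everolimus (0.17, adjusted p = 0.550), and *Eif4ebp1*, which encodes 4EBP1, at 81.1, 90.4 and 87 and 65.6, 57.4 and 79.2 (-0.36, adjusted p = 0.338). Of 54 ribosome biogenesis genes 5 were higher and 0 lower, with a median of 0.22 and 0 lower also at an unadjusted p under 0.05 and by voom. Among the higher ones were the nucleolar proteins *Utp20* (0.68), *Rrp1b* (0.53) and *Noc2l* (0.46) and the RNA polymerase I subunit *Polr1b* (0.63). Of 34 genes of the pentose phosphate pathway and nucleotide synthesis 4 were higher and 0 lower (2 by unadjusted p under 0.05, 0 by voom). The higher ones were *Pfas* of the purine pathway, from 7.95, 8.92 and 7.72 FPKM to 15, 12.7 and 13.9 (0.69, adjusted p = 0.00625), *Impdh2*, which commits purines to guanine nucleotides (0.47), and the pyrimidine enzymes *Cad* (0.60) and *Umps* (0.52). The *Pfas* call held in all 22 alternatives. The ribosome biogenesis count was 0 without vehicle tumor 1, vehicle tumor 3, everolimus tumor 1 or everolimus tumor 3 and 3 without vehicle tumor 2, and the nucleotide count was 1, 2, 1, 1 and 1 without vehicle tumors 1, 2 and 3 and everolimus tumors 1 and 3.

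Proliferation genes were called in few members, and none of the mitosis list was. Of 53 genes of mitosis and the kinetochore 0 were lower and 0 higher by limma's moderated test, with a median of 0.18, and 0 either way at an unadjusted p under 0.05 or by voom. Of these 53 values 46 were positive. *Mki67*, the proliferation antigen Ki-67, was at 14.3, 12.5 and 11.9 FPKM with vehicle and 15.9, 12.2 and 16 with everolimus, *Top2a* (topoisomerase II alpha) at 17.7, 21.9 and 15.5 and 27.6, 21.1 and 26.4, and *Ccnb1* (cyclin B1) at 26.7, 31.2 and 24.1 and 31.1, 22.9 and 28.1, and the groups overlapped in all 3. Of 47 DNA replication genes 2 were higher, the polymerase subunits *Pold1* (0.92) and *Pole2* (0.59), and 1 was lower, the transcription factor *E2f2* (-0.65). These 3 calls were lost without vehicle tumor 3 (adjusted p = 0.0760, 0.159 and 0.0563) or everolimus tumor 1 (0.0720, 0.144 and 0.0816), and each also without at least 1 other library. *Ccnd2*, cyclin D2, fell from 7.02, 9.23 and 11.2 FPKM to 3.09, 2 and 0.819 (-1.83, adjusted p = 0.00237), while its partner kinase *Cdk6* rose (0.53, adjusted p = 0.0113, 0.0575 without everolimus tumor 1) and *Ccnd1*, *Cdkn1a* and *Cdkn1b* did not pass (0.77, -0.24 and 0.19, adjusted p = 0.229, 0.232 and 0.362). In the BCL2 family, the protective *Bcl2l1* (BCL-XL) fell from 10.9, 12.1 and 12.9 FPKM to 4.16, 7.01 and 7.33 (-0.88, adjusted p = 0.0120) and the pore-forming *Bak1* from 16.6, 16.1 and 17.5 to 8.47, 9.11 and 9.67 (-0.82, adjusted p = 0.0129). Both lost their calls without vehicle tumor 3 (0.0567 and 0.0573), and *Bak1* also without everolimus tumor 1.

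Metabolic pathways changed in some members of their lists. Over all tested genes 6.05% were lower and 3.78% higher by the moderated test. Of 21 fatty acid synthesis genes 3 were higher and 2 lower. The regulator *Srebf1* rose from 12.6, 10.5 and 11.8 FPKM to 23, 24.9 and 21.5 (0.93, adjusted p = 0.0318), with *Fasn* (0.51) and *Acsl3* (0.72), while *Acacb*, the acetyl-CoA carboxylase that restrains fatty acid oxidation, fell from 5.49, 2.6 and 7.59 to 1.03, 1.35 and 2.19 (-1.24) with the malic enzyme *Me1* (-1.23). Of 25 cholesterol genes 2 were higher, *Tm7sf2* (0.70) and *Stard4* (0.63), and 0 lower (0 also by unadjusted p under 0.05 and by voom). Glycolysis had 1 higher and 0 lower of 18 (2 lower by unadjusted p under 0.05, 0 by voom), the higher one being *Pfkfb3*, a regulator of glycolytic flux (0.92). Hypoxia targets had 4 higher and 1 lower of 20, with *Pfkfb3*, *Car12* (0.81), *Ankrd37* (0.66) and *Mxi1* (0.44) higher and *Ndrg1* lower (-1.35). The liver pyruvate kinase *Pklr* fell from 44.5, 31 and 42.7 FPKM to 18.7, 18.6 and 20 (-0.99, adjusted p = 0.0307) and the pyruvate dehydrogenase kinase *Pdk4* from 29.5, 56.2 and 39.4 to 3.02, 17.6 and 18.6 (-1.86, adjusted p = 0.0443). The 14 calls named so far in this paragraph were lost when vehicle tumor 3 or everolimus tumor 1 was left out, and all but *Tm7sf2* also without vehicle tumor 1. *Foxo4*, a forkhead factor of the insulin pathway, fell from 54.1, 52.7 and 50 FPKM to 18.6, 18.7 and 27.9 (-1.25, adjusted p = 0.00118) and held in all 22 alternatives, in a list of 24 with 1 lower and 2 higher. The respiratory chain and ATP synthase had 0 lower and 0 higher of 52 by the same test, by unadjusted p under 0.05 and by voom, with a median of -0.04. Fatty acid oxidation had 1 lower of 30 and sugar metabolism 2 of 16, with 0 higher in both by limma and 0 and 1 by voom, and the MYC network had 1 lower and 3 higher of 18. The higher MYC network members numbered 0 without vehicle tumor 3 or everolimus tumor 1 and 1 without vehicle tumor 1 or everolimus tumor 3. The count for fatty acid oxidation was 3 without everolimus tumor 2 and 0 without any vehicle tumor or everolimus tumor 1, and that for sugar metabolism was 0 without vehicle tumor 1 or 3 or everolimus tumor 1 and 1 without everolimus tumor 2 or 3. In the insulin list, 1 member was higher without vehicle tumor 1 or 3 or any everolimus tumor, and 2 were lower without vehicle tumor 2. Without everolimus tumor 3, 3 hypoxia targets were lower and 2 higher.

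Markers of other cell types were counted over whole lists. Collagen and matrix genes (32 tested), endothelial markers (22) and stellate cell and fibroblast markers (16) had 0 members lower and 0 higher by limma's moderated test, with medians of 0.02, -0.05 and 0.09. Unadjusted p under 0.05 gave 4, 2 and 0 lower and 0, 2 and 0 higher members in these lists, and voom 0 in each. Macrophage markers had 1 of 20 lower, *Ms4a7* (-0.51, lost without vehicle tumor 3 or everolimus tumor 1), and 0 higher (1 by unadjusted p under 0.05, 0 by voom), with the defining *Adgre1* at 2.8, 2.2 and 3.67 FPKM with vehicle and 2.29, 6.61 and 2.29 with everolimus, *Clec4f* at 7.88, 2.07 and 11.6 and 6.66, 26.2 and 5.96 and *C1qa* at 28.4, 31 and 35.9 and 17.3, 40.8 and 19.8. The summed macrophage list ran from 198.5 to 277.2 FPKM with vehicle and from 138.9 to 330.1 with everolimus, highest in everolimus tumor 2, which also had the highest endothelial and stellate cell sums. Of 23 lymphocyte markers 6 passed the filter, 0 of them called (1 lower by unadjusted p under 0.05, 0 by voom), and the list summed to under 7 FPKM in all 6 tumors, with *Cd3e* and *Cd79a* below the filter. Of 14 neutrophil markers 6 passed and 1 was lower, the granule protein *Ltf* (lactoferrin, 1.1, 1.25 and 1.73 FPKM with vehicle, 0.123, 0.507 and 0.198 with everolimus, -0.89, adjusted p = 0.00294), while *S100a8* and *S100a9* did not pass and *Ly6g* was not tested.

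Red cell transcripts were in part higher with everolimus. Of 13 erythroid markers 6 passed the filter, 2 were higher and 0 lower, with a median of 0.72. The list summed to 36.0, 89.0 and 61.9 FPKM with vehicle and 108, 132 and 118 with everolimus. *Hba-a1* and *Hbb-bt*, adult globins whose paralogs share reads, were at 6.21, 13.3 and 12.5 and 0.465, 4.52 and 0.366 FPKM with vehicle and 24.8, 36.5 and 33.7 and 6.78, 8.08 and 7.42 with everolimus (1.53 and 1.92, adjusted p = 0.0438 and 0.0290). The higher members numbered 1 without vehicle tumor 2 and 0 without any of the other vehicle and everolimus tumors. Both calls were lost in most fits that left out a vehicle or everolimus tumor, and *Hbb-bs* and the heme enzyme *Alas2* did not pass (0.76 and 0.43, adjusted p = 0.257 and 0.0860). The part of blood content in other results was not tested.

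Everolimus and MLN0128 were compared directly in the same model, since both drugs share the vehicle tumors. Everolimus was lower than MLN0128 for 575 genes (3.99%) and higher for 797 (5.54%) at an adjusted p under 0.05. These counts rested on few libraries. Without MLN0128 tumors 1 and 2 they were 73 and 93, without MLN0128 tumor 1 alone 104 and 108, without everolimus tumor 3 86 and 96, and without everolimus tumor 1 311 and 367. Scaling by plain library totals turned the split to 1225 lower and 411 higher. In the lists that fell with everolimus few members differed between the drugs. Of the hydrolases 0 were lower and 2 higher with everolimus, of the V-ATPase subunits 1 and 2, of the glutathione genes 0 and 2, and of the interferon-stimulated genes 0 and 0. At an unadjusted p under 0.05 these pairs of counts were 3 and 9, 1 and 7, 0 and 8, and 0 and 1. The medians against vehicle for these 4 lists were -0.47, -0.56, -0.57 and -0.79 with everolimus and -0.55, -0.82, -1.13 and -0.75 with MLN0128. Without MLN0128 tumors 1 and 2 the MLN0128 medians, then of 1 tumor, were -0.48, -0.89, -1.09 and -0.62, and the direct calls of these lists were 1 lower V-ATPase gene and 1 higher glutathione gene, and the hydrolases had 3 lower and 4 higher members without MLN0128 tumor 3.

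Other lists differed in more members. Of 42 ATF4 and amino acid stress genes 26 were higher with everolimus than with MLN0128, with medians against vehicle of -0.34 and -1.44, and so were 15 of 30 ER chaperone and unfolded protein response genes and 11 of 25 cholesterol synthesis genes, with 0 lower in each, also at an unadjusted p under 0.05. The higher members of these 3 lists fell to 6, 0 and 1 without MLN0128 tumors 1 and 2 (25, 15 and 16 at an unadjusted p under 0.05), to 14, 1 and 2 without MLN0128 tumor 1 alone and to 14, 1 and 1 without everolimus tumor 3. The ER count was 8 without everolimus tumor 1, and the cholesterol count was 17 without normal liver 1. Glycolysis (8 of 18), hypoxia targets (8 of 20) and erythroid markers (4 of 6) also had members higher with everolimus than with MLN0128, with 0 lower in each. How these counts move when a single library is left out was not tested. *Chac1* was at 14.7, 12.4 and 23.6 FPKM with everolimus and 0.71, 0.287 and 0.46 with MLN0128 (3.55, adjusted p = 2.42e-05), *Atf4* at 96.9, 86.3 and 141 and 33.8, 35.6 and 30 (1.65, adjusted p = 0.00177), the chaperone *Hspa5* at 214, 193 and 218 and 81.8, 95.7 and 141 (1.00, adjusted p = 0.0127), and *Mcl1*, which the plasmid also encodes, at 235, 354 and 270 and 1120, 992 and 461 (-1.50, adjusted p = 0.0137). Without MLN0128 tumors 1 and 2, *Chac1* and *Atf4* kept their direct calls (3.57 and 1.78, adjusted p = 0.00271 and 0.0281), and *Hspa5* and *Mcl1* lost theirs (0.56 and -0.71, adjusted p = 0.173 and 0.185), as they did without MLN0128 tumor 1 alone (0.0581 and 0.0615) or everolimus tumor 3 (0.0622 and 0.0628). A direct difference that missed the threshold does not show that the drugs acted alike on a gene.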

How the data were processed

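Bulk RNA-seq of liver tissue was analysed from the table of FPKM that the authors deposited, with 1 column per library. Per the study's methods, libraries were made and sequenced commercially and gene symbols were assigned by the authors with org.Mm.eg.db. The submitters' processing notes name FastQC 0.11.7 and GRCm38. The aligner, the counting rule and the strandedness are not given in the sources used here, so reads of overlapping or near-identical genes may be misassigned. The FPKM are rounded to 3 significant digits, and 22 of 17007 symbols had been turned into dates and 2 were repeated. For 16897 symbols, GENCODE M21 (GRCm38) gave gene identifiers, coordinates and exon lengths.

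The 14397 genes that reached 0.5 FPKM in 3 or more of 12 libraries were kept. log2(FPKM + 1) was fitted in limma 3.58.1 (R 4.3.3) with 1 mean per group for all 12 libraries, no covariates and a trend in the prior variance. Both treat against a fold change of 1.5 and the moderated test were run at a Benjamini-Hochberg adjusted p under 0.05 over all tested genes. The study's own test of calls against a fold threshold ran on counts, and treat is its counterpart for FPKM. Whole reads recovered from the FPKM (98.3% to 98.8% of values under 20 reads within 0.1 of a whole number) entered limma voom as an alternative, and the script was tested on simulated data. The other alternatives were pseudocounts of 0.1 and 0.5, other filters and scalings, no variance trend, the 6 libraries alone, a replicate block and leaving out each library. A fit without MLN0128 tumors 1 and 2, and all alternatives for the direct contrast of the drugs, were added after seeing the data. Genes were named by rule: all treat-called rises, the 15 largest treat-called falls, the 15 largest rises and falls by the moderated rule without overlap (predicted genes passed over), core members of 42 gene lists with up to 4 called members a direction, Rictor and Tsc2. A few of these genes are not reported here. The comparison, the lists and the members were chosen with earlier results of these data known. Coordinates of promoters are from RefSeq (GRCm38.p6).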

Additional observations from a re-analysis of the deposited data

How the results depend on the processing

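In all 22 alternative fits the 133 named genes with an adjusted p under 0.05 kept their direction, and 63 of them kept the call in every fit. The kept direction is a weak check. Fits that changed only the filter, the variance trend, the block or the libraries of other groups left the fold change as it was. Where the groups did not overlap, leaving out 1 vehicle or everolimus tumor could not turn the sign. The counts moved more. With a pseudocount of 0.1, treat called 136 genes lower and 12 higher, against 82 and 5. A pseudocount of 0.5 gave 8 higher and scaling by plain library totals 8. The 6 everolimus and vehicle libraries fitted alone, with fewer residual degrees of freedom, gave 36 lower and 2 higher, and 45 of the 133 named calls were lost. Limma voom on the recovered reads gave 156 lower and 14 higher by treat, with 81 of the 82 lower genes shared, and 493 higher by the moderated rule. Treat against a fold change of 1.2 gave 288 lower and 53 higher, and the moderated test without a fold threshold 544 higher, as looser rules must. Leaving out 1 library at a time gave 50 to 122 lower and 3 to 9 higher genes by treat, and 367 to 802 lower and 112 to 393 higher by the moderated rule. The lowest of these were without everolimus tumor 1 or vehicle tumor 3, except for genes higher by treat, which were fewest without vehicle tumor 1. For everolimus against MLN0128 directly, leaving out 1 library gave 86 to 730 lower and 96 to 989 higher genes against 575 and 797, scaling by plain library totals 1225 and 411, and the replicate block 373 and 440. Without MLN0128 tumors 1 and 2, an alternative chosen after seeing the data like all those of the direct contrast, the counts were 73 and 93, and for everolimus against vehicle 80 lower and 9 higher by treat. The share of lower calls by the moderated rule was 69.8%, and 62.9% to 76.8% over the alternatives. Of 42 list medians, 15 changed sign in some alternative, none of them under another scaling.

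Vehicle and everolimus tumors share replicate numbers in the labels, which do not say whether the numbers pair the samples. The deviations of same-numbered tumors from their group means correlated with r of 0.05, -0.29 and -0.21 across genes, and the highest value, 0.40, joined vehicle tumor 3 and everolimus tumor 2. Deviations from the mean of a small group depend on each other, so these values cannot decide whether samples were paired. A fit with the replicate number as a block gave 74 lower and 6 higher genes by treat and 565 and 240 by the moderated rule, and 35 of the 133 named calls were lost. At this depth 3 reads on a transcript of 2 kb were worth 0.0496 to 0.0794 FPKM, so levels below that are not resolved.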
